A study of Mus musculus with 38 samples.

Results

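Hair follicle (HF) bulge stem cells (SCs) of nevus skin were compared between postnatal day 56 (P56) and day 30 (P30), to ask which part of the normal change from anagen, the growth phase, to telogen, the resting phase, was missing there. The comparison rested on 4 of the 38 libraries of the series, 2 at each age, with 2 wild type (WT) libraries at each age measured the same way. Nevus mice were Tyr-Nras Q61K;K14-H2B-GFP, in which oncogenic *Nras* is driven by the tyrosinase enhancer and promoter and so is aimed at melanocytes and not at the bulge cells profiled here. WT mice were K14-H2B-GFP, so both genotypes shared the keratin 14 driven green nuclear reporter on which cells were sorted from dorsal skin, as GFP+ CD34+ cells low in P-cadherin. Both sexes were used in the study and were not kept apart. The labels do not tie a group's pair of libraries to separate animals, while the study's text speaks in one place of biological triplicates and in another of independent experiments for the bulge pairs. Unless each library is a separate animal, the p-values reflect only how far these samples spread, and that spread may be technical. Of 20224 genes in the bulge table, 11473 were protein-coding, lay outside X and Y and had 1 FPKM (read fragments scaled to transcript length and library size) or more in at least 2 of the 4 nevus libraries. These are the genes described, 10586 of them at 1 FPKM or more in all 4 nevus libraries, 125 admitted only through their P56 level and 87 only through their P30 level.

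The bulge is the niche of HF stem cells, which stay quiescent for most of the hair cycle and share a basement membrane and adhesion program. During anagen the follicle below them builds a hair shaft inside an inner root sheath, whose cells make their own set of keratins, and in telogen these layers are gone and the bulge cells return to rest. A nevus is a benign growth of melanocytes, often arrested, and skin over some nevi carries unusually thick and long hair.

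FPKM totals per library ranged from 677457 to 738064 and 12174 to 12731 genes reached 1 FPKM, while the read depth is unknown because no counts were used here. The libraries of 1 group correlated with each other across the 11473 genes at 0.9663 to 0.9932 on the log2 scale (genes are not independent replicates), and the median SD between them was 0.0781 in WT P30, 0.168 in WT P56, 0.207 in nevus P30 and 0.202 in nevus P56, so the WT P30 pair was the tightest. *Ddx3y*, a Y-linked gene, read 16.1 and 21.1 FPKM in the nevus P30 libraries and stood at the table's lowest value of 0.1 in both P56 ones, and WT libraries split the same way by age. Sex and age therefore cannot be told apart in either genotype, which is why X and Y genes stand outside the comparison. The bulge markers *Krt15*, *Sox9*, *Lhx2* and *Lgr5* were present in all 8 libraries, the lowest of them *Lhx2* at 31.5 FPKM. The summed level of 22 bulge markers lay between 29460 and 37350 FPKM. The keratins *Krt14*, *Krt5*, *Krt15* and *Krt17* were its highest members, so the sum says little about the others. *Cd34* ran from 34.9 to 112 FPKM outside WT P56, where it was at 465 and 906. *Nfatc1* ran from 2.83 to 14.4 outside WT P56, where it was at 55.0 and 81.9. Endothelial markers summed to 17.6 FPKM or less in the nevus libraries and their defining members *Pecam1*, *Cdh5* and *Emcn* did not pass 1.21, whereas fibroblast and mural markers were higher and are given beside the results they move with.

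Nevus bulge cells changed little between P30 and P56. With limma on log2(FPKM + 1), at an adjusted p under 0.05 and a change of 2-fold or more, 22 of the 11473 genes passed (0.192%), 9 higher (0.0784%) and 13 lower (0.113%) at P56. In WT 1978 of the same genes passed (17.2%), 1183 higher (10.3%) and 795 lower (6.93%). The nevus libraries of the 2 ages did not overlap for all 22, against 43.1% of all genes described. Without a threshold on p, 353 genes differed by 2-fold or more in nevus (3.08%) and 2141 in WT (18.7%), and 1846 (16.1%) against 4801 (41.8%) had an unadjusted p under 0.05. The split of the WT calls depended on scaling, since centring each library on its median gave 920 higher and 1025 lower and quantile normalization 863 and 981. The nevus count was 6 without nevus P30 library 1, 7 without nevus P30 library 2, 12 without either WT P30 library and 39 without either WT P56 library, the WT libraries acting only through the spread that all groups shared. A fit to the 4 nevus libraries alone gave 20.

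The difference between the nevus and the WT change, tested directly, passed in 835 genes (7.28%), 468 with the nevus change higher (4.08%) and 367 lower (3.2%). A WT age gene was counted as lost where it passed in WT, did not pass in nevus, and the difference passed against the WT direction. A lost gene could therefore still hold a part of the WT change that did not pass in nevus, such as 2.46 for *Tgm5* and 2.29 for *Sncg* on the log2 scale. By this count 711 of the 1978 WT age genes were lost (35.9%), made up of 390 of the 795 WT falls (49.1%) and 321 of the 1183 WT rises (27.1%). Another 9 were kept, passing in both genotypes with no difference that passed at 2-fold, 5 were reduced, passing in both with a smaller nevus change, and none turned round. The other 1253 (63.3%) were undecided, because neither the nevus change nor the difference passed. The gap between falls and rises depended on scaling. Centring each library on its median gave 374 lost of 920 rises and 459 lost of 1025 falls. Quantile normalization gave 354 of 863 and 443 of 981, so under either scaling the 2 shares lay closer together. The lost count fell to 430 without nevus P30 library 1, 404 without library 2, and 299 and 286 without WT P30 library 1 or 2.

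**Figure D1:**
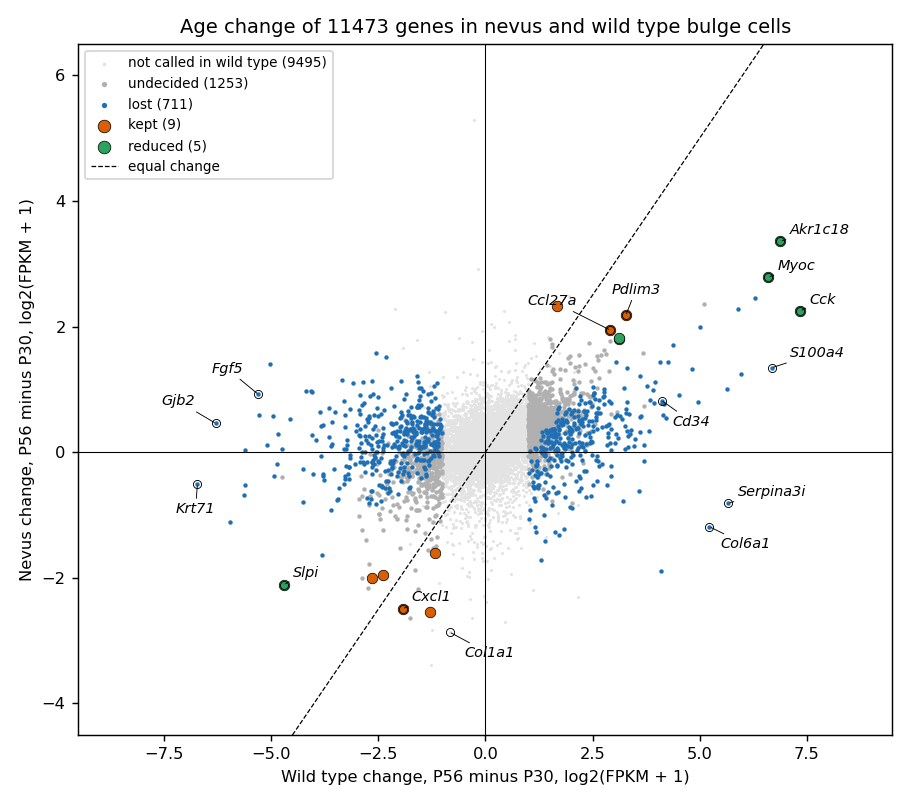
Change from P30 to P56 on the log2(FPKM + 1) scale for 11473 genes, WT on the x axis and nevus on the y axis; each point is a gene, coloured by its count as lost (711), kept (9), reduced (5), undecided (1253) or not called in WT, and the dashed line marks equal change. Lost genes spread from *Krt71*, at a WT change of −6.72 and a nevus change of −0.51, to *S100a4*, at 6.69 and 1.34, and the 5 reduced genes lie between the horizontal zero line and the line of equal change.

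Neither an undecided nor a lost gene is shown by its count to have stayed level in nevus. The 95% interval reached, in the median gene, 0.53 to either side of a nevus change and 0.75 to either side of a difference on the log2 scale. The interval of the nevus change lay wholly within 2-fold for 937 of the 1978 WT age genes (47.4%), 551 rises and 386 falls, among them 539 of the undecided, against 69.9% of all genes described. The median nevus change was 0.42 for the 1183 WT rises, whose WT median was 1.39, and −0.06 for the 795 WT falls, whose WT median was −1.59. The median over all genes described was 0.17 in nevus and 0.13 in WT, and relative to those the nevus medians were 0.25 for the rises and −0.23 for the falls, which is 19.4% and 13.3% of the WT medians. At least 50% of the WT change, in the same direction, was present in 210 of the rises (17.8%) and 57 of the falls (7.17%). The falls' nevus median changed sign with the library left out, at 0.10 and −0.18 without nevus P30 library 1 or 2 and −0.16 and 0.08 without nevus P56 library 1 or 2. Since these genes were picked by their WT change, the WT medians are a description.

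Each nevus library was also placed against the mean of the WT P30 libraries. For the WT rises the nevus P30 libraries had median offsets of 0.19 and −0.05 and the nevus P56 libraries 0.54 and 0.46. The WT P56 libraries had 1.37 and 1.45. For the WT falls the nevus P30 libraries had −0.08 and −0.36 and the nevus P56 libraries −0.12 and −0.40. The WT P56 libraries had −1.40 and −1.80. The nevus P56 mean was nearer the WT P30 mean than the WT P56 mean in 885 of the rises (74.8%) and 681 of the falls (85.7%). At P30 the nevus mean was nearer WT P30 in 93.6% and 92.5%. At both ages, then, most WT age genes in nevus bulge cells stood closer to the anagen level of WT than to its telogen level.

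**Figure D2:**
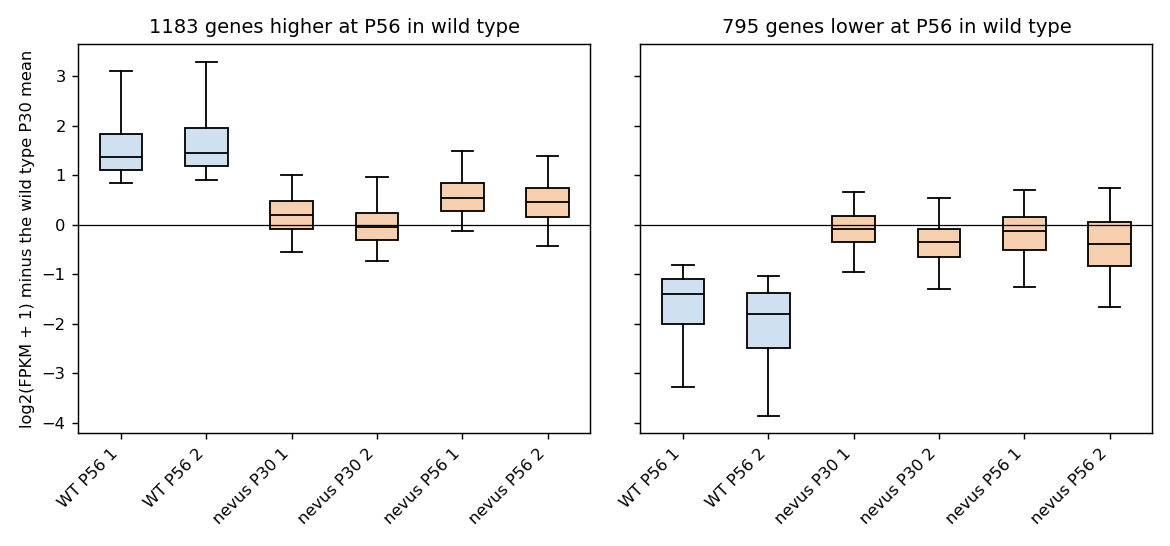
Offset of each library from the WT P30 mean on the log2(FPKM + 1) scale, over the 1183 genes higher (left) and the 795 genes lower (right) at P56 in WT; boxes are quartiles, lines medians and whiskers the 5th to 95th percentiles over genes. The nevus P56 boxes lie near 0 with medians of 0.54 and 0.46 on the left and −0.12 and −0.40 on the right, apart from the WT P56 boxes.

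Genes of quiescent bulge SCs were among the lost WT rises. Of 9 quiescence genes, a list the study chose on these same samples and so no independent evidence of its direction, 9 rose in WT (10.3% of all genes described did), none passed in nevus (0.192%) and 8 were lost (27.1% of all WT rises were), with a median change of 0.78 in nevus and 2.60 in WT. In a bulk library, fewer cells making a transcript and less transcript per cell cannot be told apart. *Cd34*, the surface glycoprotein on which these cells were sorted (ENSMUSG00000016494.9, chr1:194938819-194961279, GRCm38), was at 50.6 and 41.6 FPKM in nevus P30, 59.7 and 112 in nevus P56, 38.2 and 34.9 in WT P30, and 465 and 906 in WT P56. The WT P56 pair stood far above the rest, and the nevus P56 pair was above the nevus P30 pair. Its nevus change of 0.82 ± 0.35 (SE, n = 2 per age, log2 scale) had an adjusted p of 0.317, its WT change was 4.12 (adjusted p = 0.00014), and the difference of −3.29 ± 0.50 had an adjusted p of 0.00613.

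*Krt15*, a keratin of bulge cells (ENSMUSG00000054146.8, chr11:100131758-100135928), stood at 2176 and 2040.0 FPKM in nevus P30, 3581 and 4250 in nevus P56, 2254 and 2248 in WT P30 and 12592 and 18542 in WT P56. All 4 nevus libraries lay under the lower WT P56 library, and the difference between the changes was −1.87 ± 0.28 (adjusted p = 0.00535). *Nfatc1*, a transcription factor that holds bulge SCs at rest (ENSMUSG00000033016.15, chr18:80606205-80713071), was at 5.39 and 4.47 FPKM in nevus P30, 14.4 and 5.72 in nevus P56, 2.83 and 4.16 in WT P30 and 55.0 and 81.9 in WT P56. In nevus, 1 P56 library was near the P30 pair and the other was higher. The difference for *Nfatc1* was −3.16 ± 0.54 (adjusted p = 0.0107), and it passed in 6 of the 8 fits that left out 1 library. *Col17a1*, a collagen of the hemidesmosomes that anchor SCs (ENSMUSG00000025064.14, chr19:47646344-47692094), read 110 and 104 FPKM in nevus P30, 155 and 261 in nevus P56, 129 and 125 in WT P30 and 675 and 786 in WT P56. The difference was −1.60 ± 0.33 (adjusted p = 0.0223), which passed in 3 of those fits.

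*Fgf18*, a growth factor of resting follicles (ENSMUSG00000057967.12, chr11:33117430-33147400), was at 0.33 and 0.10 FPKM in nevus P30 and 6.53 and 2.11 in nevus P56, against 0.89 and 0.86 in WT P30 and 40.5 and 87.6 in WT P56. Both nevus P56 libraries were above both nevus P30 ones, of which 1 was at the table's lowest value, and the nevus change of 2.0 ± 0.45 did not pass (adjusted p = 0.136), while the difference of −3.02 ± 0.64 did (adjusted p = 0.0258) in this fit and in 3 of the 8 that left out 1 library. *Ctgf*, a secreted matrix protein induced by TGF-beta, had a nevus change of 0.80 (adjusted p = 0.377), a WT change of 4.96 and a difference of −4.16 (adjusted p = 0.00377). In the wider list of 22 bulge SC markers, 9 rose and 1 fell in WT (10.3% and 6.93% of all genes described did). None passed in nevus (0.192%) and 9 were lost (35.9% of all WT age genes were). *Lhx2* and *Sox9*, transcription factors that define these cells, passed in neither genotype, with nevus changes of 0.30 and 0.39. *Dkk3* and *Postn*, picked from that list after their values were seen, had differences of −2.75 (adjusted p = 0.0107) and −3.07 (adjusted p = 0.0027). *Vdr*, the vitamin D receptor gene and likewise picked, went the other way, at 155 and 122 FPKM in nevus P30, 253 and 317 in nevus P56 and 110 and 105 in WT P56. Its difference was 1.48 (adjusted p = 0.0104).

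**Figure D3:**
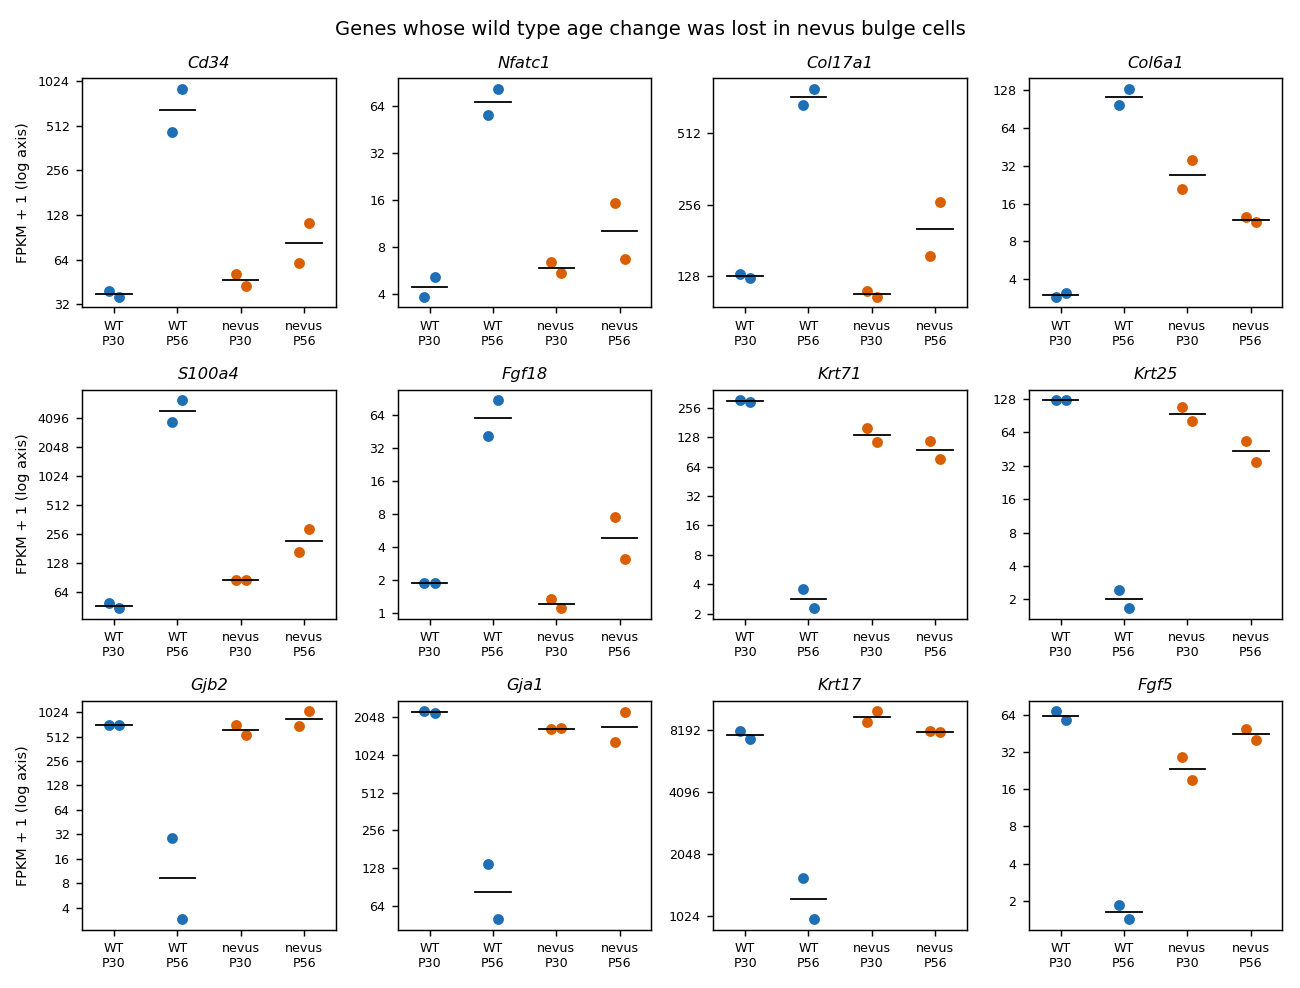
FPKM + 1 on a log axis in each of the 8 libraries for 12 genes whose WT change was lost; points are libraries, lines the means on the log2(FPKM + 1) scale, WT in blue and nevus in orange. *Cd34*, *Nfatc1*, *Col17a1*, *Col6a1*, *S100a4* and *Fgf18* stand high only in the WT P56 libraries, and *Krt71*, *Krt25*, *Gjb2*, *Gja1*, *Krt17* and *Fgf5* low only there.

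*S100a4*, of the S100 family of calcium sensors (ENSMUSG00000001020.8, chr3:90603771-90606045), stood at 85.7 and 85.6 FPKM in nevus P30 and 166 and 290.1 in nevus P56, against 48.3 and 43.0 in WT P30 and 3689 and 6246 in WT P56. The nevus P56 pair was above the nevus P30 pair and far under either WT P56 library. Its nevus change was 1.34 ± 0.30 (adjusted p = 0.133) and the difference was −5.34 ± 0.42 (adjusted p = 0.000668). *Col8a2*, a short-chain collagen, and *Il31ra*, a receptor for the itch cytokine interleukin 31, had differences of −4.72 (adjusted p = 0.000846) and −4.63 (adjusted p = 0.00115).

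Among the 1183 WT rises, 160 had a nevus change of opposite sign, and *Col6a1* and *Serpina3i* had the largest WT rise of those named by rule. *Col6a1*, a chain of collagen VI (ENSMUSG00000001119.7, chr10:76708792-76726168), was at 19.9 and 34.3 FPKM in nevus P30 and 11.4 and 10.4 in nevus P56, against 1.90 and 2.10 in WT P30 and 96.3 and 129 in WT P56. Nevus P30 was thus above WT P30 and nevus P56 far below WT P56. The nevus change was −1.19 ± 0.27 (adjusted p = 0.136) and the difference −6.42 ± 0.38 (adjusted p = 0.000362). *Col6a2*, its partner chain, named after its values were seen, had 21.1 and 40.8 FPKM in nevus P30 and 7.45 and 6.90 in nevus P56, a nevus change of −1.90 that stopped at an adjusted p of 0.05 and a difference of −6.00 (adjusted p = 0.0005). *Serpina3i*, a serine protease inhibitor gene (ENSMUSG00000079014.4, chr12:104263122-104269372), was at 23.4 and 26.1 FPKM in nevus P30 and 6.15 and 29.2 in nevus P56, and at 1.90 and 1.63 in WT P30 and 106 and 185 in WT P56. Its nevus ages overlapped, and the difference was −6.48 ± 0.79 (adjusted p = 0.00272). *Serpina3i* belongs to a multigene family whose reads may be split between copies, so its level is uncertain.

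*Tgm5*, a transglutaminase gene, and *Sncg*, a synuclein gene, were counted as lost although their nevus P56 libraries stood above the P30 ones. *Tgm5* read 2.37 and 2.0 FPKM in nevus P30 and 13.3 and 20.4 in nevus P56, against 108 and 552 in WT P56. It had a nevus change of 2.46 (adjusted p = 0.157) and a difference of −3.82 (adjusted p = 0.0325) that passed in 2 of the 8 fits that left out 1 library. *Sncg* read 1.02 and 0.40 in nevus P30 and 12.4 and 4.01 in nevus P56, against 146 and 218 in WT P56. It had a nevus change of 2.29 (adjusted p = 0.0863) and a difference of −3.62 (adjusted p = 0.0101).

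The inner root sheath is the rigid sleeve that moulds the growing hair. Of 11 measured genes of this layer, 9 fell in WT (6.93% of all genes described did), none passed in nevus (0.192%) and 6 were lost (49.1% of all WT falls were), with a median change of −0.68 in nevus and −2.95 in WT. *Krt71*, a type II keratin of the sheath (ENSMUSG00000051879.3, chr15:101733949-101743109), and the type I keratins *Krt25*, *Krt27* and *Krt28* (ENSMUSG00000035831.2, ENSMUSG00000017588.2 and ENSMUSG00000055937.1), neighbours on chr11 between 99315516 and 99374903, were the lost falls of this layer with the largest WT change. Because these genes moved together, the 160 bases before the RefSeq start of each are shown (GRCm38.p6, minus strand, 5′ to 3′), at chr11:99322952-99323111 for *Krt25*, chr11:99351119-99351278 for *Krt27*, chr11:99374904-99375063 for *Krt28* and chr15:101743098-101743257 for *Krt71*. Capitals mark TATAAA on the strand shown and CTTTGA, the core recognised by LEF/TCF factors, on either strand.
Krt25: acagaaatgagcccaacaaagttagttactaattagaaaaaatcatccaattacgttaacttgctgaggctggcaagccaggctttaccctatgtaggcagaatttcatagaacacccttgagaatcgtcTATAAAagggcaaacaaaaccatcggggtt
Krt27: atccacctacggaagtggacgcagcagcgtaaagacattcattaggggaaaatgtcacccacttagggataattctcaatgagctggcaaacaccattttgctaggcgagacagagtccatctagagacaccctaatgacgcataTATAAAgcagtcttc
Krt28: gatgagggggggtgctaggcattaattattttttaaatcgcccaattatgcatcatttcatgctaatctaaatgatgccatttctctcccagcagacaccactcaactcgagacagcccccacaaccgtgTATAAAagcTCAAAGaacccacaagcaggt
Krt71: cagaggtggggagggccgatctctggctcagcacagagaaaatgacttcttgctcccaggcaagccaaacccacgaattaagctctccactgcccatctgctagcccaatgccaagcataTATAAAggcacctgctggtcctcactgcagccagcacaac
TATAAA occurred in 4 of these 4 stretches, on the strand shown. Its first base lay 30 bases before the start in *Krt25* and *Krt28*, 15 in *Krt27* and 40 in *Krt71*. Counted on either strand, it occurred in 8.02% of the 32843 mouse promoters of the same length, and the share on the gene's own strand was not computed. CTTTGA occurred in 1 of 4, on the other strand of *Krt28*, and in 8.55% of promoters, and a core of the GATA factor family spelled AGATAA, searched on both strands, in 0 of 4 and 6.02%. A match describes the letters and is not evidence of binding.

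*Krt71* was at 158 and 113 FPKM in nevus P30 and 115 and 76.0 in nevus P56, against 306 and 294 in WT P30 and 2.56 and 1.28 in WT P56. The nevus ages overlapped and all 4 nevus libraries lay far above both WT P56 libraries. The nevus change of −0.51 ± 0.28 had an adjusted p of 0.414, the WT change was −6.72 (adjusted p = 9.38e-06), and the difference was 6.21 ± 0.40 (adjusted p = 0.000422). *Krt25* stood at 107 and 80.8 FPKM in nevus P30 and 52.6 and 33.8 in nevus P56, against 1.42 and 0.66 in WT P56. Its nevus P56 libraries were both below its P30 ones, by −1.12 ± 0.27 (adjusted p = 0.154), where WT had −5.97. *Krt27* and *Krt28* had nevus changes of −0.68 and −0.52 and differences of 4.96 (adjusted p = 0.000641) and 5.09 (adjusted p = 0.00411). The differences of these 4 keratins passed in each of the 8 fits that left out 1 library. *Cux1*, a homeobox gene of the sheath lineage, had a nevus change of 0.09 and a difference of 3.70 (adjusted p = 0.0239) that passed in 3 of those 8 fits.

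Hair shaft and matrix genes were less clear. Of 17 measured, 11 fell in WT (6.93% of all genes described did). None passed in nevus (0.192%) and 2 were lost (49.1% of all WT falls were), with a median of −0.37 in nevus and −1.54 in WT. *Krt35*, a shaft keratin, read 127 and 29.4 FPKM in nevus P30 and 24.7 and 20.8 in nevus P56, and neither its nevus change (−1.40, adjusted p = 0.358) nor the difference (1.40, adjusted p = 0.429) passed. In nevus, 1 P30 library was high and the other 3 libraries lay together.

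Gap junction genes encode connexins, which join neighbouring cells by channels. Of 6 measured, 3 rose and 3 fell in WT (10.3% and 6.93% of all genes described did). None passed in nevus, where 0.192% of all genes did, and the 3 that fell were lost (49.1% of all WT falls were). *Gjb2*, for connexin 26 (ENSMUSG00000046352.7, chr14:57098600-57104702), was at 707 and 538 FPKM in nevus P30, 683 and 1053 in nevus P56, 718 and 710.0 in WT P30, and 28.1 and 1.86 in WT P56. The nevus ages overlapped and the WT P56 pair was apart from every other library. Its difference of 6.75 ± 1.18 had an adjusted p of 0.0119 and passed in 6 of 8 fits without 1 library, and its WT P56 libraries lay far from each other. *Gja1*, for connexin 43 (ENSMUSG00000050953.9, chr10:56377330-56402513), stood at 1640 and 1670 FPKM in nevus P30 and 1306 and 2232 in nevus P56, against 137 and 49.0 in WT P56. Its difference was 4.80 ± 0.59 (adjusted p = 0.00272). *Gjb6*, for connexin 30 and named after its values were seen, had a difference of 5.16 (adjusted p = 0.0029).

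*Fgf5*, the growth factor that ends anagen (ENSMUSG00000029337.2, chr5:98254184-98277030), was at 28.4 and 18.0 FPKM in nevus P30, 48.5 and 39.5 in nevus P56, 68.1 and 57.5 in WT P30 and 0.84 and 0.41 in WT P56. Both nevus P56 libraries were higher than both nevus P30 ones, a change of 0.92 ± 0.26 that did not pass (adjusted p = 0.191), and the difference of 6.22 ± 0.36 did (adjusted p = 0.000362). *Krt17*, a keratin of the outer root sheath and of activated keratinocytes (ENSMUSG00000035557.9, chr11:100256217-100261029), stood between 8028 and 10125 FPKM in the 4 nevus libraries and at 1554 and 983 in WT P56. Its difference was 2.41 ± 0.30 (adjusted p = 0.00275). *Cmah*, an enzyme of sialic acid synthesis, and *Rnase12*, a secreted ribonuclease family gene, had nevus changes of 0.04 and 0.60 and differences of 5.65 (adjusted p = 0.00143) and 5.88 (adjusted p = 0.000641). *Rnase12* was at the table's lowest value in both WT P56 libraries, so the size of its difference depends on the pseudocount.

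Of 13 FGF ligands, receptors and targets, 4 rose and 3 fell in WT (10.3% and 6.93% of all genes described did). Lost were 6, *Fgf18* and *Fgf5* among them (35.9% of all WT age genes were lost). *Dusp6*, a feedback inhibitor of FGF and ERK signalling, had a nevus change of −0.63 (adjusted p = 0.387), a WT change of −2.29 and a difference of 1.66 that did not pass (adjusted p = 0.0645). Among 17 TGF-beta pathway genes 6 rose and 3 fell in WT and 6 were lost, to be set against the same shares. Their nevus median of 0.10 turned sign under both other scalings (−0.05 and −0.01). *Tgfbi*, a TGF-beta induced matrix protein, read 76.4 and 66.5 FPKM in nevus P30 and 94.2 and 74.6 in nevus P56, against 426 and 565 in WT P56. Its nevus ages overlapped below the WT P56 pair, with a difference of −2.87 ± 0.27 (adjusted p = 0.00115). *Cyr61*, a matricellular protein gene, differed by −1.89 (adjusted p = 0.00328).

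WNT antagonists, which restrain the signal that starts anagen, rose in WT in 3 of 7 measured genes (10.3% of all genes described did). Those 3 were lost (27.1% of all WT rises were), with a list median of −0.02 in nevus and 0.98 in WT. *Wif1*, 1 of the 3 and picked after its values were seen, was at 9.34 and 7.40 FPKM in nevus P30 and 6.47 and 5.13 in nevus P56. In WT it was at 1.56 and 1.55 at P30 and 17.1 and 12.3 at P56. Both nevus ages thus stood above WT P30 and below WT P56. Its difference was −3.07 (adjusted p = 0.002). *Sostdc1*, an inhibitor of both BMP and WNT signals, had a nevus change of 0.65 (adjusted p = 0.294) and a difference of −1.69 (adjusted p = 0.0288) that passed in 2 of the 8 fits without 1 library. *Sfrp1*, the antagonist with the highest nevus level, was at 114 and 105 FPKM in nevus P30 and 119 and 267 in nevus P56, and its difference of −0.09 did not pass (adjusted p = 0.945). BMP target genes, read-outs of the signal that keeps bulge cells at rest, had a nevus median of −0.66 and a WT median of 0.26 over 9 genes. None of the 9 passed in either genotype, and the difference passed in 3 (in 7.28% of all genes described). Under either other scaling it passed in 2. Of the 3, the nevus change was lower in 2 and higher in 1 (3.2% and 4.08% of all genes described). *Id1*, 1 of the 2 with a lower nevus change, was at 522 and 452 FPKM in nevus P30 and 366 and 242 in nevus P56, against 777 and 726 in WT P56. Its nevus P56 libraries were the lower pair and its WT P56 libraries the higher, and the difference of −1.35 had an adjusted p of 0.0264 and passed in 4 of those 8 fits. *Bmp6*, a BMP ligand of the niche, passed in neither genotype, with a nevus change of 0.63 (adjusted p = 0.308).

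Collagen VI and basement membrane genes split in both directions. Of 17 measured, 8 rose and 4 fell in WT (10.3% and 6.93% of all genes described did) and none passed in nevus (0.192%). Lost were 11, 8 with the nevus change lower and 3 higher (35.9% of all WT age genes were lost). *Lamb3*, a chain of the laminin that anchors epithelium, was at 41.2 and 49.4 FPKM in nevus P30 and 63.5 and 57.7 in nevus P56, against 247 and 365 in WT P56. *Lamb1*, a laminin chain of other basement membranes, was at 45.7 and 42.5 in nevus P30 and 37.6 and 55.4 in nevus P56, against 7.51 and 3.64 in WT P56. All 4 nevus libraries lay outside the range of the WT P56 pair for either gene, with differences of −2.40 (adjusted p = 0.0028) and 3.34 (adjusted p = 0.0028). *Lamb3*, *Lamb1* and *Col7a1*, the anchoring fibril collagen with a difference of −2.92 (adjusted p = 0.0019), were picked from the list after their values were seen.

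**Figure D4:**
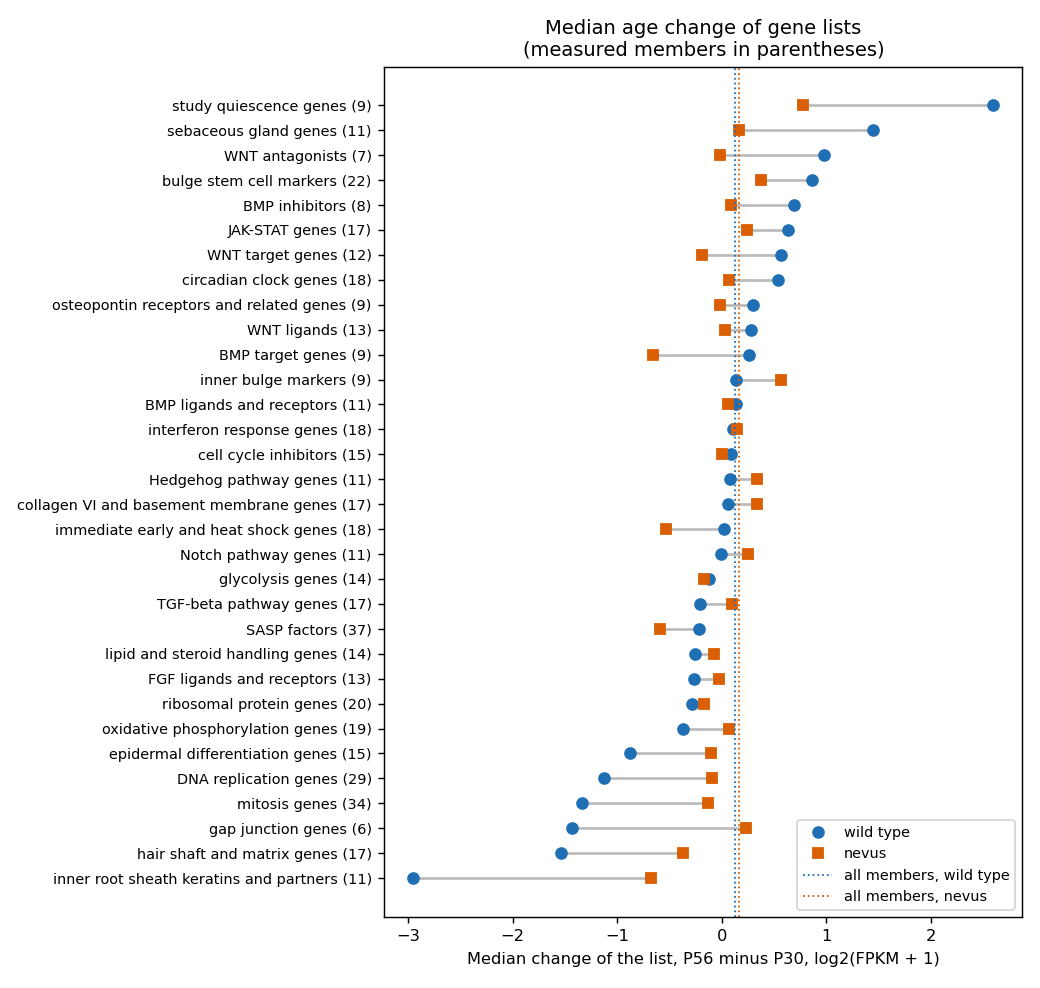
Median change from P30 to P56 on the log2(FPKM + 1) scale for each list, WT as blue circles and nevus as orange squares, with the number of measured genes in parentheses; dotted lines are the medians over all 11473 genes, 0.13 in WT and 0.17 in nevus. The inner root sheath (−2.95 in WT, −0.68 in nevus), mitosis and quiescence (2.60 and 0.78) lists have nevus medians nearer 0 than their WT medians.

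Of 34 mitosis genes 21 fell in WT (6.93% of all genes described did), with medians of −0.13 in nevus and −1.34 in WT. None passed in nevus (0.192%) and none had a difference that passed (7.28%), so none was lost, where 49.1% of all WT falls were. Median centring and quantile normalization each gave 1 mitosis gene with a difference that passed. Of 29 DNA replication genes 16 fell in WT, and 1 had a difference that passed, against the same shares. Median centring gave 4 such differences and quantile normalization 3. *Mki67*, which marks cycling cells, was at 13.2 and 10.2 FPKM in nevus P30 and 11.9 and 8.24 in nevus P56, against 11.5 and 10.4 in WT P30 and 5.73 and 2.27 in WT P56. The nevus ages overlapped and both WT P56 libraries were lowest, and the difference of 1.14 did not pass (adjusted p = 0.201). *Cenpa* and *Ube2c*, genes of the kinetochore and of mitotic exit had differences that did not pass (1.82, adjusted p = 0.141, and 1.80, adjusted p = 0.188). *Ccnd1*, the G1 cyclin D1 gene, fell in WT by 1.2 on the log2 scale and had a nevus change of −0.06, with a difference of 1.14 (adjusted p = 0.0221) that passed in 2 of the 8 fits without 1 library. Among 15 cell cycle inhibitors *Cdkn2b*, for the senescence-linked p15, read 27.1 and 33.0 FPKM in nevus P30 and 49.8 and 28.3 in nevus P56, against 19.8 in both WT P30 libraries and 6.55 and 7.29 in WT P56. Nevus values overlapped between ages above all WT values, and the difference of 1.71 (adjusted p = 0.0272) passed in 2 of 8 fits without 1 library.

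Of 18 circadian clock genes 7 rose and 4 fell in WT (10.3% and 6.93% of all genes described did). None passed in nevus (0.192%) and 3 were lost (35.9% of all WT age genes were). The list's nevus median of 0.07 turned to −0.08 and −0.12 under the other scalings, and its WT median was 0.54. *Nr1d1*, a clock repressor picked from the list after its values were seen, was at 9.68 and 10.7 FPKM in nevus P30 and 10.5 and 4.28 in nevus P56, against 70.6 and 42.4 in WT P56. Its difference was −3.36 (adjusted p = 0.0064). *Dbp*, a clock output gene picked the same way, differed by −2.23 (adjusted p = 0.0248). No source used here gives the time of day at collection, so its part in these values cannot be told apart from age. No gene of a list of 20 ribosomal protein genes passed in either genotype. *Rps28*, a ribosomal protein gene outside that list, passed as a nevus fall and is named below.

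Of the 22 genes that changed in nevus bulge cells, 14 passed in WT in the same direction and none in the opposite one. For 5 of the 14 the nevus change was the smaller by a difference that passed at 2-fold. *Akr1c18*, an enzyme that inactivates progesterone (ENSMUSG00000021214.13, chr13:4132615-4150654), was at 0.55 and 1.0 FPKM in nevus P30 and 17.2 and 17.0 in nevus P56, against 1.43 and 1.96 in WT P30 and 426 and 235 in WT P56. It rose in nevus by 3.36 ± 0.29 (adjusted p = 0.00224) and in WT by 6.89, and the difference of −3.53 ± 0.41 passed too (adjusted p = 0.00231). *Myoc*, for the secreted glycoprotein myocilin (ENSMUSG00000026697.10, chr1:162639155-162649693), read 1.77 and 1.35 FPKM in nevus P30 and 13.2 and 20.9 in nevus P56, against 194 and 254 in WT P56. *Cck*, for the peptide cholecystokinin (ENSMUSG00000032532.6, chr9:121489824-121495694), read 0.30 in both nevus P30 libraries and 4.22 and 6.33 in nevus P56, against 242 and 186 in WT P56. Both rose in nevus, by 2.79 ± 0.27 (adjusted p = 0.00377) and 2.25 ± 0.24 (adjusted p = 0.00731), and remained far under WT P56, with differences of −3.82 ± 0.38 (adjusted p = 0.0013) and −5.10 ± 0.34 (adjusted p = 0.000433). The nevus rises of *Akr1c18*, *Myoc* and *Cck* passed in 7, 6 and 6 of the 8 fits without 1 library. *Cck* entered the comparison only through its P56 level.

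*Ccl27a*, a skin chemokine (ENSMUSG00000073888.12, chr4:41769467-41774247), stood at 380.1 and 387 FPKM in nevus P30 and 1453 and 1501 in nevus P56, against 829 and 749 in WT P30 and 6668 and 5326 in WT P56. The nevus pairs were tight and apart, and the rise of 1.94 ± 0.15 (adjusted p = 0.00187) passed in each of the 8 fits without 1 library. WT rose by 2.92, and the difference of −0.98 ± 0.22 (adjusted p = 0.0319) stayed under 2-fold, so the change counted as kept. *Gm13306*, a near copy of *Ccl27a* with which it may share reads, had values up to 6710 FPKM in nevus P56 and is uncertain. *2210418O10Rik*, *Pdlim3*, a muscle-type PDZ and LIM protein gene, and *Pdzk1ip1*, a membrane protein gene, were kept rises, by 2.33 (adjusted p = 0.00736), 2.18 (adjusted p = 0.0285) and 1.80 (adjusted p = 0.025), in 5, 3 and 3 of the 8 fits without 1 library.

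*Slpi*, an inhibitor of leukocyte proteases (ENSMUSG00000017002.14, chr2:164354070-164389095), was at 117 and 132 FPKM in nevus P30 and 35.8 and 22.0 in nevus P56, against 77.3 and 87.7 in WT P30 and 1.99 and 2.4 in WT P56. It fell in nevus by 2.11 on the log2 scale (adjusted p = 0.00904) and in WT by 4.71, a difference of 2.60 ± 0.34 (adjusted p = 0.00304). *Cldn4*, a tight junction claudin (ENSMUSG00000047501.3, chr5:134945119-134946934), read 41.0 and 37.6 FPKM in nevus P30, 11.2 and 7.24 in nevus P56, 62.6 and 67.1 in WT P30 and 10.2 and 8.84 in WT P56. Both genotypes moved between about the same levels, with changes of −2.0 (adjusted p = 0.00736) and −2.64, and a difference of 0.64 whose 95% interval ran from −0.06 to 1.34. *Cxcl1*, a neutrophil chemokine, and *Has1*, a hyaluronan synthase, were kept falls of −2.49 (adjusted p = 0.0363) and −1.96 (adjusted p = 0.0493), each passing in 3 of 8 fits without 1 library.

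**Figure D5:**
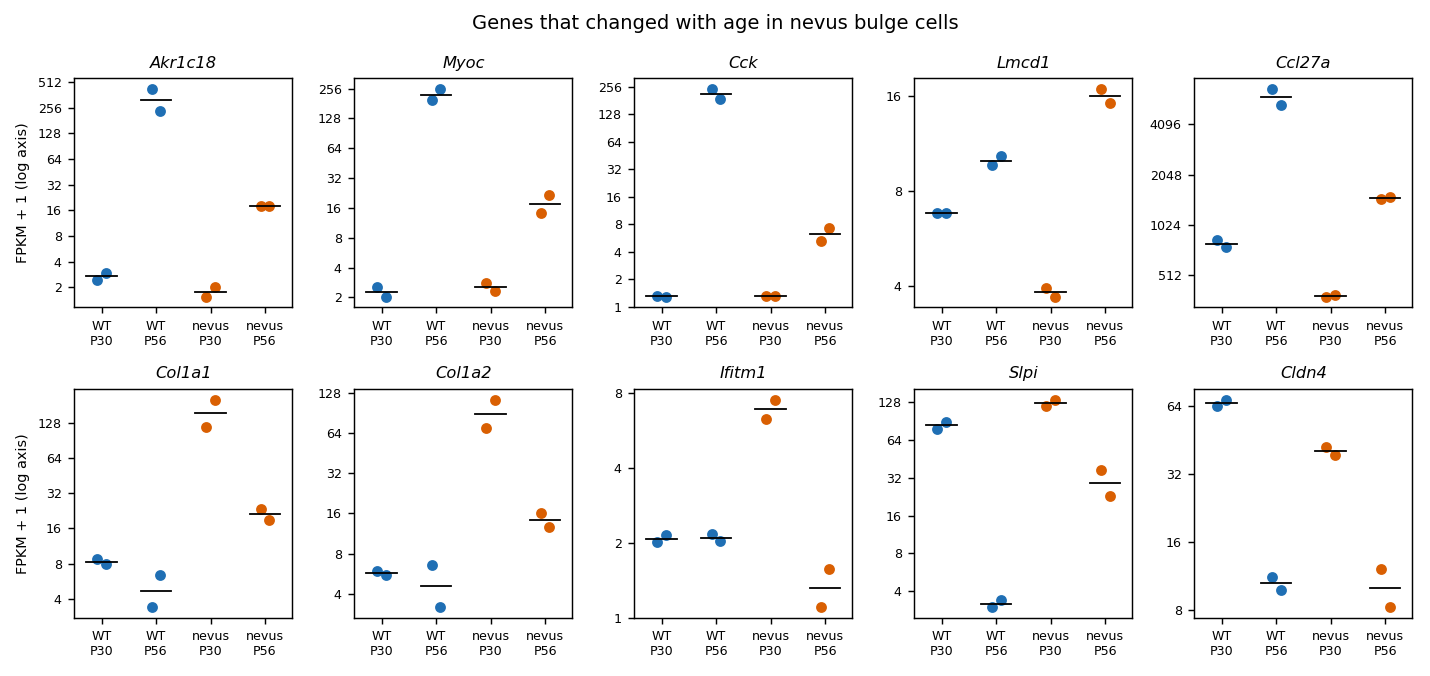
FPKM + 1 on a log axis in each of the 8 libraries for 10 of the 22 genes that passed between nevus P30 and P56; points are libraries, lines the means on the log2(FPKM + 1) scale, WT in blue and nevus in orange. *Akr1c18*, *Myoc* and *Cck* reach 16.99 to 17.18, 13.2 to 20.9 and 4.22 to 6.33 FPKM in nevus P56, under WT P56, and *Col1a1* and *Col1a2* are highest in nevus P30.

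Changes that passed in nevus and not in WT numbered 8, 1 rise and 7 falls, and for 6 of them the difference passed as well. *Lmcd1*, a LIM domain co-regulator (ENSMUSG00000057604.9, chr6:112273758-112330425), was at 2.94 and 2.69 FPKM in nevus P30 and 15.9 and 14.2 in nevus P56, against 5.80 and 5.79 in WT P30 and 8.65 and 9.33 in WT P56. Nevus P30 was the lowest group and nevus P56 the highest. It rose by 2.07 ± 0.19 (adjusted p = 0.00303), in each of the 8 fits without 1 library, with a difference of 1.52 ± 0.27 (adjusted p = 0.012). *Ifitm1*, an interferon-induced membrane protein gene (ENSMUSG00000025491.14, chr7:140967221-140969825), read 5.31 and 6.54 FPKM in nevus P30 and 0.10 and 0.57 in nevus P56, with all 4 WT libraries between 1.02 and 1.16. It fell by 2.39 on the log2 scale (adjusted p = 0.0067), and the difference was −2.41 ± 0.35 (adjusted p = 0.0051). *Ifitm1* entered the comparison only through its P30 level, and 1 of its nevus P56 libraries was at the table's lowest value.

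Fibrillar collagens were the clearest nevus falls by level. *Col1a1* (ENSMUSG00000001506.10, chr11:94936224-94953042), for a chain of collagen I, read 116 and 201 FPKM in nevus P30 and 22.5 and 17.9 in nevus P56, against 7.79 and 6.88 in WT P30 and 2.39 and 5.42 in WT P56. *Col1a2* (ENSMUSG00000029661.16, chr6:4504814-4541544), for the other chain, read 69.2 and 113 in nevus P30 and 15.1 and 11.7 in nevus P56. *Col3a1* (ENSMUSG00000026043.18, chr1:45311538-45349706), for collagen III, read 115 and 131 and then 17.9 and 22.8. In all 3 the nevus P30 pair was the highest and nevus P56 remained above both WT groups. They fell by 2.87 (adjusted p = 0.0141), 2.64 (adjusted p = 0.0252) and 2.55 (adjusted p = 0.00736) on the log2 scale, with differences of −2.03 ± 0.49 (adjusted p = 0.0414) and −2.32 ± 0.51 (adjusted p = 0.0288) for the collagen I chains, and −1.25, which did not pass (adjusted p = 0.0905), for *Col3a1*, which also fell in WT. The nevus falls of *Col1a1* and *Col1a2* passed in 4 and 2 of the 8 fits without 1 library, that of *Col3a1* in 5, and the differences of the collagen I chains in 1 and 3.

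These 3 collagen genes are also defining markers of fibroblasts, cells that the sort on the keratin reporter was meant to leave out. The 10 fibroblast markers summed to 510 and 655 FPKM in nevus P30, 190.4 and 130.3 in nevus P56, 143 and 138 in WT P30 and 80.2 and 75 in WT P56, so their sum was highest in the nevus P30 libraries. Of the 10, 3 fell in nevus (0.113% of all genes described did), with a list median of −1.53 in nevus and −0.22 in WT. In WT 1 rose and 2 fell (10.3% and 6.93% of all genes described did), and 2 were lost (35.9% of all WT age genes were). The difference passed lower in 3 and higher in 1 (3.2% and 4.08% of all genes described). *Lum* and *Pdgfra*, defining members, were at 8.30 and 10.2 and at 1.97 and 1.22 FPKM in nevus P30. *Dcn*, a fibroblast marker named after its values were seen, had another pattern. It read 147 and 118 in nevus P30, 100 and 47.1 in nevus P56, 96.9 and 91.8 in WT P30 and 10.3 and 4.4 in WT P56. *Tnfaip6*, a hyaluronan-binding protein gene, at 6.32 and 15.0 FPKM in nevus P30 and 1.17 and 1.1 in nevus P56, *Mfap4*, a microfibril gene, at 7.6 and 9.43 and then 1.65 and 2.25, and *Tfpi2*, a protease inhibitor gene, were among the other nevus falls. Their differences were −1.98 (adjusted p = 0.0426, passing in 1 of the 8 fits) for *Tnfaip6* and −2.0 for *Tfpi2*. *Mfap4*, *Tfpi2* and *Rps28* complete the 7 falls and were named after their values were seen. What part fibroblast RNA had in any of these values, *Col6a1* and *Col6a2* included, was not tested.

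Mural markers, led by *Acta2*, the smooth muscle actin gene, summed to 460.0 and 342 FPKM in nevus P30, 330.0 and 468 in nevus P56, 299 and 308 in WT P30 and 102 and 82.7 in WT P56. The defining members *Rgs5* and *Myh11* stayed at or under 0.36 FPKM in all nevus libraries. Of 7 measured mural genes 1 rose and 4 fell in WT (10.3% and 6.93% of all genes described did), and 2 were lost (35.9% of all WT age genes were). The *Acta2* difference of 4.35 did not pass (adjusted p = 0.0581). That of *Myl9*, another mural marker and 1 of the 2 lost, was 2.25 and did (adjusted p = 0.0185). It ranged from 1.82 to 2.68 without 1 library. Myeloid markers summed to 47.8 and 40.1 FPKM in nevus P30 and 94.7 and 142 in nevus P56, and WT P56 library 1 stood apart from the rest at 548. Melanocyte markers summed to 20.9 to 30.2 FPKM over the nevus libraries, between 13.25 and 12.55 in WT P30 and 46.3 and 61.5 in WT P56. *Tyr*, the gene whose regulatory DNA drives the oncogene, was at 0.33 to 0.45 in the nevus libraries.

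*Nras*, the gene of the transgene, was at 53.0 and 46.7 FPKM in nevus P30 and 52.5 and 42.3 in nevus P56, a change of −0.08 (adjusted p = 0.856), and whether transgene reads are counted under it is not stated. *Spp1*, for the secreted ligand osteopontin, was at 109 and 489 FPKM in nevus P30 and 67.7 and 17.3 in nevus P56, and at most 1.05 in WT. Both ages of nevus stood above WT, the nevus libraries of each age varied several-fold, and the nevus change of −2.71 did not pass (adjusted p = 0.185). *Mmp9*, a matrix metalloprotease gene, read 46.0 and 115 FPKM in nevus P30 and 17.0 and 13.4 in nevus P56, a change of −2.19 that did not pass (adjusted p = 0.162). It had a difference of −3.31 (adjusted p = 0.0393) that passed in 2 of the 8 fits without 1 library. *Cd44*, an osteopontin receptor, was at 92.6 to 102 FPKM in all nevus libraries, with a nevus change of −0.08 (adjusted p = 0.859). Of 37 measured factors of the senescence-associated secretory phenotype, 3 rose and 11 fell in WT (10.3% and 6.93% of all genes described did). In nevus 1 fell, *Cxcl1* (0.113% of all genes described did), and the list median was −0.59 in nevus and −0.22 in WT. *Cdh3*, the P-cadherin gene on which the sort selected low cells, was at 75.9 and 58.8 FPKM in nevus P30 and 64.4 and 113 in nevus P56, against 37.4 and 33.3 in WT P56. It had a difference of 1.58 (adjusted p = 0.0365) that passed in 3 of the 8 fits.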

How the data were processed

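Bulge SCs were sorted and profiled by RNA sequencing of full-length cDNA, in 4 groups of 2 libraries. The deposited FPKM values were computed by the authors with RSEM after alignment with STAR 2.4.2 to GRCm38 (per the labels), with no stated scaling between libraries. Counts were not used here, so depth is unknown and no counting interval is given, and the study's own test (edgeR) could not be run. The table lists no value under 0.1, and 23 symbols turned into dates were restored from their identifiers. On log2(FPKM + 1), limma 3.58.1 (R 4.3.3) was run with 4 group means over the 8 bulge libraries and a variance trend, over 13263 protein-coding and lncRNA genes at 1 FPKM or more in 2 of the 8. Fold changes of low genes are understated on this scale. P-values were two-sided and Benjamini-Hochberg adjusted over all 13263. The nevus and WT changes share no library. Genes were called at an adjusted p under 0.05 and 2-fold. Replicate numbers did not pair the samples.

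Genes, 40 lists (606 genes) and tests were chosen with earlier results of these data known. Named genes were the 8 largest nevus rises and falls and the 8 largest lost WT rises and falls (5 FPKM or more, no overlap), the 6 largest kept rises and falls, up to 4 genes per list described and 17 fixed genes. Some picks are given as counts only.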

Additional observations from a re-analysis of the deposited data

Results flagged for a closer look

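The nevus change differed from the WT change, by the test of the difference in limma, in 835 genes, and is given here for 28 named genes whose change passed in 1 genotype at most. With 2 libraries a group, no library could be tested as an outlier.

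Lower in nevus than in WT were the changes of *Serpina3i* (log2 difference −6.48), *Col6a1* (−6.42), *S100a4* (−5.34), *Col8a2* (−4.72), *Il31ra* (−4.63), *Tgm5* (−3.82), *Sncg* (−3.62), *Mmp9* (−3.31), *Cd34* (−3.29), *Nfatc1* (−3.16), *Fgf18* (−3.02), *Ifitm1* (−2.41), *Col1a2* (−2.32), *Col1a1* (−2.03), *Tfpi2* (−2.0), *Tnfaip6* (−1.98) and *Krt15* (−1.87). Higher in nevus were those of *Gjb2* (6.75), *Fgf5* (6.22), *Krt71* (6.21), *Rnase12* (5.88), *Cmah* (5.65), *Krt28* (5.09), *Krt27* (4.96), *Krt25* (4.85), *Cdkn2b* (1.71), *Cdh3* (1.58) and *Lmcd1* (1.52). For *Mmp9* the change of neither genotype passed on its own. *Ifitm1*, *Lmcd1*, *Col1a1*, *Col1a2*, *Tfpi2* and *Tnfaip6* passed in nevus and not in WT, and the others, *Mmp9* apart, passed in WT and not in nevus.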

How the results depend on the processing

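Of the 1507 single-gene values recomputed under the alternatives, 1310 kept their side of the threshold, 196 no longer passed and 1 newly passed. None that had passed changed direction. Some values that had not passed did change sign, among them the nevus changes of *Cdh3* (0.35, lowest −0.05 without 1 library) and *Lhx2* (0.30, lowest −0.12). Leaving out a nevus P30 library ended 34 calls among 90 single-gene values, a WT P30 library 25, a nevus P56 library 14 and a WT P56 library 2 or 8. The count of nevus calls, 22, was 18 to 30 under other pseudocounts, filters, scalings and variance models, and ranged from 6 to 39 with 1 library left out. Over the same leave-outs WT calls (1978) ranged from 1226 to 2246, differences (835) from 296 to 1007, lost genes (711) from 286 to 893 and list genes called in nevus (5) from 2 to 9. Where a library was left out its partner was assumed to vary like the other groups. Without nevus P30 library 1 or 2, 3 of the 22 nevus calls remained, and 22 of 22 among the 39 without a WT P56 library. List genes called in nevus were 3 with a pseudocount of 0.1 and 3 with no filter on low values, and WT calls were 3362 with no fold threshold. Median centring moved the nevus median from 0.17 to 0.01, the WT rises' nevus median to 0.26 and the falls' to −0.21.

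Replicate numbers were shared across groups, but deviations of same-numbered libraries correlated at only −0.006 to 0.195, so they do not pair the samples. With the replicate block the counts were 30 nevus calls, which held all 22, 2054 WT calls, 957 differences, 809 lost genes and 7 list genes. With 2 libraries per group and unknown depth, a nevus change under about 0.53 (log2) was within the median 95% interval.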

Other observations

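Beyond the genes described, 183 further autosomal protein-coding genes passed between P30 and P56 in WT but stayed under 1 FPKM in 3 or 4 nevus libraries, 155 higher and 28 lower at P56 in WT. The difference from the nevus change passed in 73 of them, 62 of these among the WT rises. *Car6*, a secreted carbonic anhydrase gene named after its values were seen, stood at 5.36 and 8.13 FPKM in WT P30 and 0.10 and 0.19 in WT P56, and at 0.85 and 0.48 in nevus P30 and 3.01 and 0.73 in nevus P56.

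Outside the rule, 11 fitted genes passed between nevus P30 and P56. *Eif2s3y*, *Ddx3y*, *Uty* and *Kdm5d* (Y-linked) and *Xist*, *Tsix* and *Slc38a5* (X-linked) were 7 of them, and all but *Slc38a5* moved as far in WT, with no difference that passed. *Slc38a5*, an amino acid transporter gene, was at 0.59 and 0.84 FPKM in nevus P30 and 4.39 and 8.44 in nevus P56, with a difference of 1.90 (adjusted p = 0.031 by limma), where sex and age cannot be told apart. *Meg3*, an imprinted non-coding RNA, was at 5.48 and 4.16 FPKM in nevus P30, 0.43 and 0.39 in nevus P56 and 0.62 or less in WT, with a difference of −2.38 (adjusted p = 0.00507). The others were *Gm20402*, *Gm20463* and *Gm23925*, of which the first was antisense to another gene and lower at P56 in both genotypes. All of them were named after their values were seen.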
